A study of Mus musculus with 20 samples.

Results

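Gcnt1 and Gcnt2 encode the branching N-acetylglucosaminyltransferases that were followed here in the femoral shaft of Hyp mice. They were selected on the Hyp against normal signal differences of these arrays, because a Gcnt2 probe set was higher in Hyp in every pair, and the same choice asked whether it tracks the erythroid genes Slc4a1 and Alas2. All 10 of the 45101 probe sets on the array that carry these symbols are described, 8 for Gcnt2 and 2 for Gcnt1. Of these, 7 were called present on at least 5 of the 20 arrays and entered the statistical fit, and 3 Gcnt2 probe sets did not. Within each gene the probe sets are numbered here by mean signal over the 20 arrays, from the brightest.

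The study compared 5-week-old C57BL/6J mice that carry Hyp, a mutation of the X-linked gene Phex and a mouse model of X-linked hypophosphatemia, with their normal littermates. There were 5 arrays each of hemizygous Hyp males (Hyp/Y), normal wild-type males, heterozygous Hyp females (Hyp/+) and normal wild-type females. Heterozygous females still carry a normal Phex allele. Each array held equal amounts of RNA from 2 mice of the same genotype and sex, 40 mice in all, so the spread between single mice was not seen. Each of the 5 series held 1 array of every group, from littermates handled in parallel, so that Hyp and normal arrays of the same sex and series form 10 pairs. A saline flush had been used to clear out as much of the marrow as it could. In such whole-tissue RNA, fewer cells of a type and less RNA per cell cannot be told apart.

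Both enzymes add N-acetylglucosamine in a beta-1,6 linkage and so start a branch on a sugar chain. Gcnt1 makes the core 2 branch of O-glycans, which on white blood cells carries selectin ligands. Gcnt2 branches poly-N-acetyllactosamine chains, and in human its product is the I antigen of adult red cells, which replaces the linear i antigen of fetal red cells. The human gene has alternative first exons, one of which is used in erythroid cells. Slc4a1 (band 3, the anion exchanger of the red cell membrane) and Alas2 (the erythroid enzyme of the first step of heme synthesis) mark maturing red cells.

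Gcnt2 lies at chr13:40859768-40960892 and Gcnt1 at chr19:17326141-17372844 in the RefSeq annotation of assembly GRCm38.p6. The RefSeq promoter table of the same build holds 3 start sites for each gene, 1 for Alas2 and 0 for Slc4a1. The 250 bases before each Gcnt2 start are shown because the question was whether Gcnt2 goes with red cell genes, beside those of Alas2, all on the plus strand. Both strands were searched for AGATAA and TGATAA, forms of the GATA motif, and for CCNCACCC, a CACC-box motif, and matches are in capitals. The motifs were picked with the array results known.
Gcnt2 start 1, chr13:40859518-40859767: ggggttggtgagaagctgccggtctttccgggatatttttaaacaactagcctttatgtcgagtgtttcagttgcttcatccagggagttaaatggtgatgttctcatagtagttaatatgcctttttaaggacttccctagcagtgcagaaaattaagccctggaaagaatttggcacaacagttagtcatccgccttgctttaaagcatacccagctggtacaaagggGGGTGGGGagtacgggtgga
Gcnt2 start 2, chr13:40886508-40886757: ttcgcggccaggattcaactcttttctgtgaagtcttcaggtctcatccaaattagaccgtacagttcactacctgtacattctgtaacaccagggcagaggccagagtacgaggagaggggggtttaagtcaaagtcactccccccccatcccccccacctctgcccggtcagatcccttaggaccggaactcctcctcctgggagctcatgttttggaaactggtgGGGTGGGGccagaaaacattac
Gcnt2 start 3, chr13:40917384-40917633: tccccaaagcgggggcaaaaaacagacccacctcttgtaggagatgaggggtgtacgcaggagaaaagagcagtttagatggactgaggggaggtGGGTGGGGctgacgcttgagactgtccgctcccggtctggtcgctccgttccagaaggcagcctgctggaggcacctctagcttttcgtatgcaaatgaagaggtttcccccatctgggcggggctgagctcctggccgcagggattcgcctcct
Alas2, chrX:150547167-150547416: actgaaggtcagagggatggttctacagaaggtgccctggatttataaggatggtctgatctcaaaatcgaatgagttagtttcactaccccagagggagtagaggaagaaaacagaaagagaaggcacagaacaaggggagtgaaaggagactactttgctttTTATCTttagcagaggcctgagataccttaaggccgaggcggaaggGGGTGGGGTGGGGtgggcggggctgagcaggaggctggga
Each of the 3 Gcnt2 windows held the CACC-box motif in reverse complement, with its first base 20, 22 and 155 bases before the start, and none held a GATA form. The Alas2 window held AGATAA in reverse complement and 2 overlapping CACC-box matches. Of all 32851 windows in the table, 14.86% held the CACC-box motif, 9.99% AGATAA and 7.94% TGATAA. The 3 Gcnt1 windows held none of the 3 motifs. The array does not tell from which start a Gcnt2 signal came.

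The share of probe sets with a present call ran from 49.3% to 56.9% over the arrays, and the number of arrays limits the precision of each value. Signals are linear fluorescence units and the mean trimmed by 2% was 500.0 on every array, and levels of different probe sets are not compared. Differences are on the scale log2(signal + 16). The actin 3′/5′ signal ratio, a measure of RNA integrity, averaged 1.78 ± 0.09 in Hyp males and 1.59 ± 0.12 in normal males, and 1.62 ± 0.065 in Hyp females and 1.498 ± 0.079 in normal females (SD, n = 5 each). A Phex probe set was lower in Hyp in all 10 pairs, with differences from -7.59 to -1.98. The summed signal of 12 osteoblast and osteocyte genes, the cells of bone, ran from 139763.1 to 193338.6 in Hyp males and from 145372.8 to 215108.4 in normal males, and from 160081.6 to 187696.3 in Hyp females and from 148581.1 to 200626.5 in normal females. The collagen genes Col1a1 and Col1a2 had the highest mean signals of the 12, at 54410.7 and 62766.5. The sum leans on them and says little on the other genes, which are counted below.

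Gcnt2 was higher in Hyp at Gcnt2 probe set 2, the one that led to the choice of the gene. Its signals were 433.9, 514.9, 585.9, 628.4 and 569.2 in Hyp males of series 1 to 5, against 279.7, 314.7, 259.4, 370.2 and 366.0 in normal males. Those of Hyp females were 499.5, 671.1, 546.9, 538.4 and 622.7, against 279.2, 430.7, 337.5, 358.4 and 354.6 in normal females. The lowest Hyp array lay just above the highest normal array, at 433.9 against 430.7. The difference within a pair ran from 0.57 to 1.13 and was above 0 in 10 of 10 pairs, with a fitted mean of 0.72 ± 0.08 (SE). It was 0.75 ± 0.22 in the 5 male pairs and 0.69 ± 0.10 in the 5 female pairs (SD). With Slc4a1 as a covariate the fitted difference was 0.79 ± 0.10 (SE), with Alas2 it was 0.77 ± 0.09 and with the actin ratio 0.60 ± 0.13. Because this contrast chose the gene, all these values are a description, carry no test and say nothing on whether the probe set tracks erythroid genes.

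The detection calls split in the same way: 9 of 10 Hyp arrays called Gcnt2 probe set 2 present and 1 marginal, against 0 present and 3 marginal of 10 normal arrays. The probe set thus entered the fit through the Hyp arrays alone. As it was not called present in normal shafts, the fold of mean log2 signals is given as a bound, at least 1.68-fold higher in Hyp over both sexes, at least 1.72-fold in males and at least 1.64-fold in females. It was computed against the higher of the lowest signal called present on an array and the signal of the probe set itself. On all 10 normal arrays that was the probe set's own signal, so the bound equals the measured ratio of geometric means. The ratio of arithmetic means in the authors' deposited table was 1.675. Of the 27141 probe sets in the fit, 355 (1.31%) were higher and 281 (1.04%) lower in Hyp in 10 of 10 pairs. A ranking by the smallest pair difference of this probe set was made after its values were seen. It found 2 probe sets with every pair at or above that difference. These were Gcnt2 probe set 2 itself and one of Prg2, the eosinophil major basic protein. The ranking uses the values that chose the probe set, so it is a description and no measure of how unusual the difference is.

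**Figure D1:**
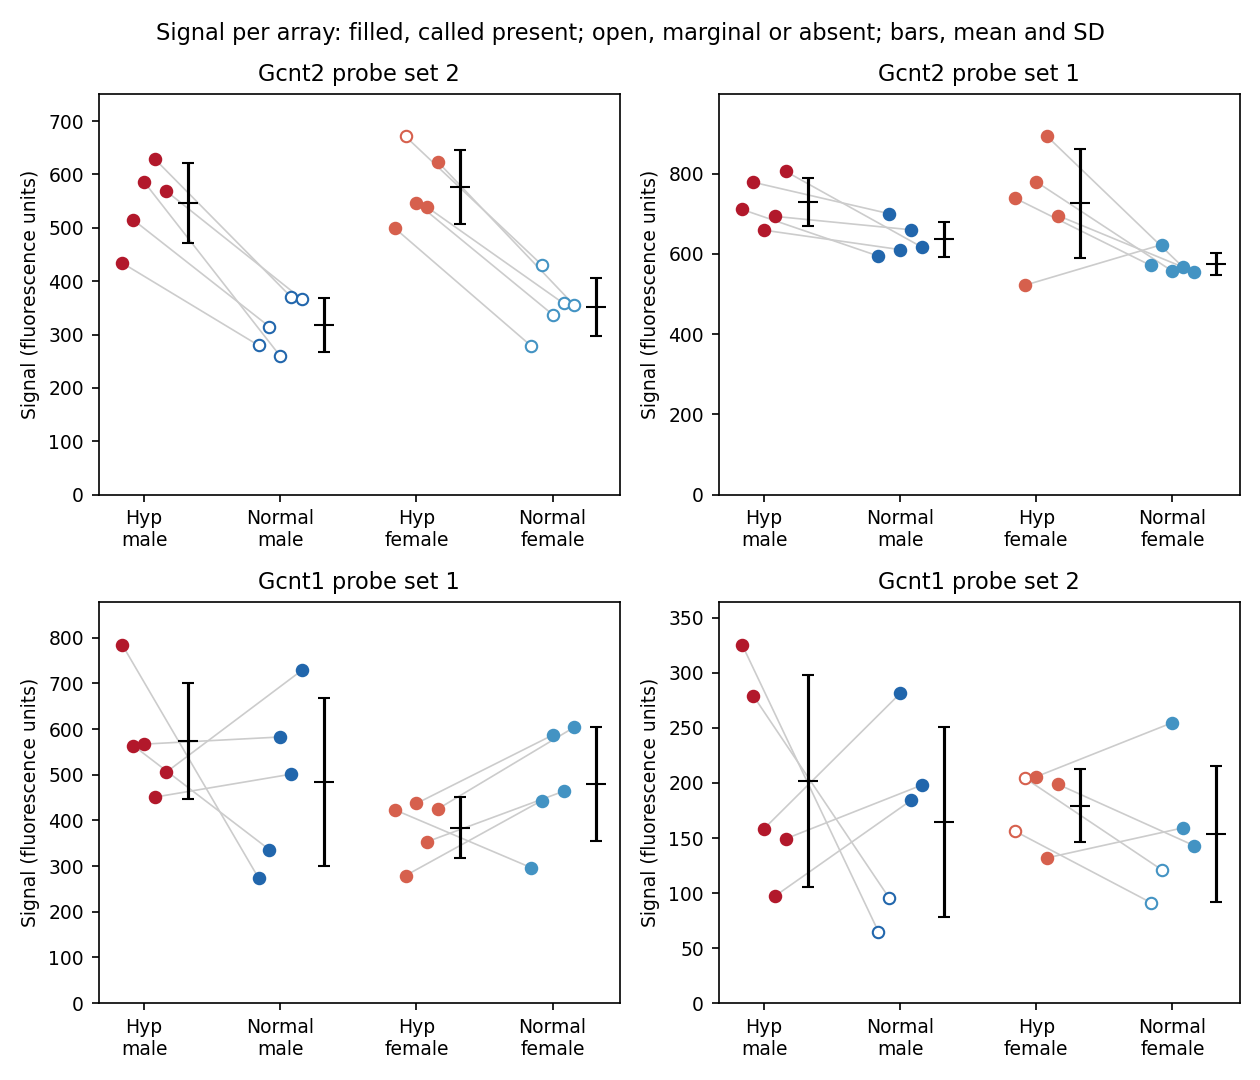
Signal of each array in fluorescence units (linear axis from 0) for 2 Gcnt2 and 2 Gcnt1 probe sets in the 4 groups, with grey lines between the Hyp and the normal array of a pair and black bars for mean and SD (n = 5). All Hyp arrays lie above all normal arrays for Gcnt2 probe set 2, where 9 of 10 Hyp and 0 of 10 normal points are filled (called present), while the Gcnt1 groups overlap.

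The other Gcnt2 probe sets differed less and not in every pair. At Gcnt2 probe set 1, called present on all 20 arrays, the signals were 710.5, 778.4, 659.0, 693.4 and 805.3 in Hyp males, against 594.4, 700.0, 610.5, 659.9 and 616.6 in normal males. They were 739.3, 522.2, 779.4, 892.4 and 695.2 in Hyp females, against 571.1, 622.8, 556.5, 566.0 and 555.3 in normal females. The groups overlap: Hyp female 2 was the lowest of the 20 arrays, and the pair of that array was the 1 of 10 with a lower signal in Hyp. The fitted difference was 0.25 ± 0.09 (SE), with pairs from -0.25 to 0.64. The difference was 0.39 ± 0.14 at Gcnt2 probe set 3 (8 of 10 pairs higher), 0.20 ± 0.12 at Gcnt2 probe set 4 (7 of 10) and 0.32 ± 0.21 at Gcnt2 probe set 5 (7 of 10). In the naming of the array's maker, the ending _s_at of Gcnt2 probe sets 3 and 4 marks probes that can match transcripts of more than one gene.

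All 5 fitted Gcnt2 probe sets thus had a positive mean difference, but no pair of them passed a test of correlated deviations. With group and series effects removed, Gcnt2 probe set 2 correlated at -0.44 with Gcnt2 probe set 1 over the 20 arrays (rho -0.44, adjusted permutation p = 0.816) and at -0.55 with Gcnt2 probe set 5 (rho -0.49, adjusted permutation p = 0.32). P-values were adjusted over the 21 pairs of fitted member probe sets. The 2 Gcnt1 probe sets were the 1 pair that passed, at r = 0.81 (rho 0.80, adjusted permutation p = 0.0334).

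The 3 Gcnt2 probe sets outside the fit were Gcnt2 probe set 6 and Gcnt2 probe set 8, called present on 0 of 20 arrays, and Gcnt2 probe set 7, called present on 2. Their signals ran from 10.8 to 123.7, from 1.1 to 20.0 and from 1.4 to 69.4 over all arrays, and they were higher in Hyp in 6, 5 and 4 of 10 pairs. No direction is read from them.

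Gcnt1 showed no common direction. At Gcnt1 probe set 1, called present on all 20 arrays, the signals were 784.1, 564.0, 567.1, 451.1 and 505.1 in Hyp males, against 274.1, 336.0, 582.7, 501.3 and 729.0 in normal males. They were 423.4, 279.3, 437.2, 353.6 and 425.7 in Hyp females, against 296.9, 443.5, 586.8, 463.8 and 604.3 in normal females. The groups overlap widely, and 3 of 10 pairs were higher in Hyp, all of them in series 1 and 2. The fitted difference was 0.01 ± 0.16 (SE), with pairs from -0.64 to 1.46.

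The second Gcnt1 probe set, Gcnt1 probe set 2, split by series. Its pair differences lay between 0.68 and 2.08 in the 4 pairs of series 1 and 2, all higher in Hyp, and between -0.82 and 0.43 in the 6 pairs of series 3 to 5, of which 1 was higher. The detection calls split too, with a present call on 2 of 8 arrays of series 1 and 2 and on 12 of 12 arrays of series 3 to 5. The 2 arrays were those of Hyp males, so no normal and no female array of series 1 and 2 called it present. The fitted difference of 0.28 ± 0.24 (SE) therefore averages over signal differences of opposite sign. Those of series 1 and 2 rest on normal arrays without a present call, and no direction of the transcript is read from them. In the same pairs Slc4a1 differed by 0.86 ± 0.82 in series 1 and 2 and by 0.22 ± 0.30 in series 3 to 5 (SD, n = 4 and 6).

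**Figure D2:**
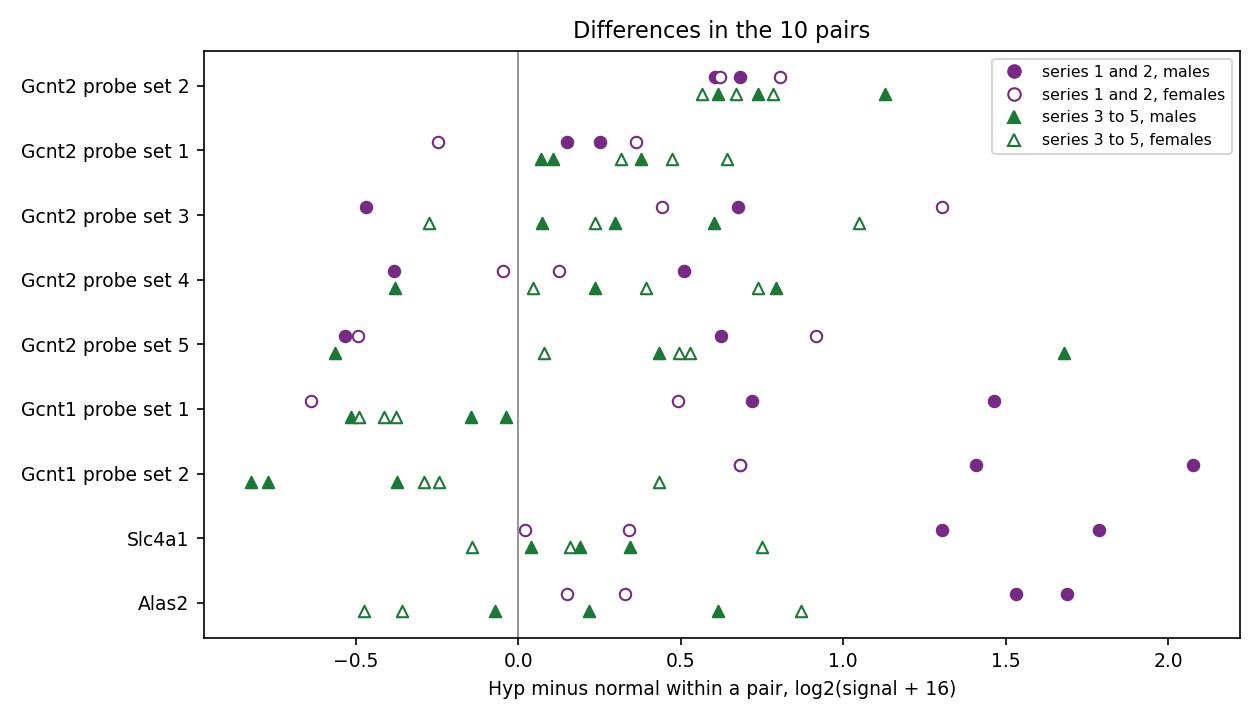
Hyp minus normal within each of the 10 pairs on the log2(signal + 16) scale, for the 7 fitted Gcnt probe sets, Slc4a1 and Alas2, with circles for series 1 and 2 and triangles for series 3 to 5, filled for males and open for females. The 10 values of Gcnt2 probe set 2 stand between 0.57 and 1.13, whereas both Gcnt1 probe sets spread from below -0.6 to above 1.4 with their highest values in the males of series 1 and 2.

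Sex was not used in the choice of the genes and could be tested. Of the fitted Gcnt probe sets, 0 of 7 passed the test of female against male arrays, compared with 0.133% of all probe sets tested, with limma adjusted p between 0.469 and 0.963, and 0 of 7 passed at an unadjusted p under 0.05 (13.9% of all). The difference, female minus male, was 0.11 ± 0.08 (SE) at Gcnt2 probe set 2 and -0.08 ± 0.09 at Gcnt2 probe set 1. At Gcnt1 probe set 1 it was -0.26 ± 0.16.

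The Hyp difference was not shown to depend on sex either. The interaction of genotype and sex passed for 0 of 7 probe sets (0.00368% of all tested), with limma adjusted p between 0.757 and 0.995 and 0 of 7 at an unadjusted p under 0.05 (6.62% of all). At Gcnt2 probe set 2 the Hyp difference in females minus that in males was -0.06 ± 0.15 (SE), and at Gcnt1 probe set 1 it was -0.58 ± 0.31. Gcnt2 probe set 2 was chosen for being higher in Hyp in the pairs of both sexes. That choice favours a like difference in the sexes, so its interaction is a description only. In the authors' deposited table the interaction was in the class under 0.025 for Gcnt2 probe set 6 and under 0.05 for Gcnt2 probe set 7. These were called present on 0 and 2 of 20 arrays. For the other 8 Gcnt probe sets the interaction was not significant in that table.

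The 2 erythroid markers averaged higher in Hyp, without passing the test. Slc4a1 averaged 18314.7 ± 4169.3 in Hyp males and 11436.6 ± 3840.1 in normal males, and 9971.0 ± 1942.9 in Hyp females and 8593.9 ± 2024.5 in normal females (SD, n = 5 each). Alas2 averaged 7217.6 ± 2058.3 in Hyp males and 4313.0 ± 1886.6 in normal males, and 3406.8 ± 733.1 in Hyp females and 3197.1 ± 738.6 in normal females. The groups overlap for both genes in each sex. Slc4a1 was higher in Hyp in 9 of 10 pairs (0.48 ± 0.15 (SE), limma adjusted p = 0.0937) and Alas2 in 7 of 10 (0.45 ± 0.17, limma adjusted p = 0.163). Slc4a1 is read by an _x_at probe set, which can hybridise with other sequences.

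Of 34 erythroid genes measured, 33 had a positive difference, with a median of 0.44 against -0.002 for all genes, but 1 rose and 0 fell, against 2.38% of all probe sets called in either direction (1.08% higher, 1.30% lower). The 1 gene that rose was Mfsd2b, a sphingosine 1-phosphate exporter of red cells, at 0.74 ± 0.16 (SE, limma adjusted p = 0.0306). The summed signal of the 34 genes ran from 127601.6 to 223375.3 in Hyp males and from 80026.6 to 152353.8 in normal males. It ran from 79249.5 to 111130.5 in Hyp females and from 64409.3 to 109458.0 in normal females. Among markers of other cells, 10 of 10 megakaryocyte genes had a positive difference (1 rose, median 0.63), as had both eosinophil and basophil genes measured (1 rose, median 0.87) and 12 of 12 endothelial genes (3 rose, median 0.37). Of 15 cell division genes 14 had a positive difference (1 rose, median 0.36), against 1 of 8 B lymphocyte genes (median -0.31) and 2 of 9 osteoclast genes (median -0.23). In the latter 2 lists 0 were called. Positive differences were found for 8 of 9 skeletal muscle, 7 of 10 monocyte and macrophage, 6 of 12 neutrophil, 3 of 5 adipocyte and 2 of 3 T and NK lymphocyte genes, with 0 called. Of 12 osteoblast and osteocyte genes 5 fell and 0 rose (median -0.49). Those that fell include Phex itself, the gene mutated in Hyp, at -4.45 ± 0.16 (SE). The summed megakaryocyte signal ran from 16179.9 to 40031.9 in Hyp males and from 8868.8 to 22720.6 in normal males, and from 10738.5 to 27300.7 in Hyp females and from 9772.1 to 17452.5 in normal females. Their part in the Gcnt2 difference was not tested.

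Gcnt2 was not shown to track the 2 markers. For Gcnt2 probe set 2, deviations from group and series effects correlated at -0.36 with Slc4a1 (rho -0.30, permutation p = 0.271, adjusted p = 0.543) and at -0.30 with Alas2 (rho -0.23, permutation p = 0.329, adjusted p = 0.563) over the 20 arrays. Of these 20 arrays, the 10 normal ones did not call Gcnt2 probe set 2 present, which limits what the pooled r says of the transcript. Across all 5 fitted Gcnt2 probe sets r ran from -0.42 to 0.12, and none of the 10 relations passed, with the lowest adjusted permutation p at 0.418. Adjustment was over 14 relations, 7 probe sets by 2 markers.

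For Gcnt2 probe set 2 and Slc4a1, effects fitted within the 10 Hyp arrays gave r = -0.98 (adjusted permutation p = 0.0403) and rho = -0.95, for which the adjusted permutation p was 0.17. Within the 10 normal arrays, 0 of which called the probe set present, r was 0.54 (adjusted permutation p = 0.614), and no direction is read from it. Each of these fits leaves 4 residual degrees of freedom. From the deviations of the fit over 20 arrays, r was -0.86 in Hyp arrays and 0.14 in normal arrays. At Gcnt2 probe set 5, called present on 5 of 10 normal arrays, r with Slc4a1 fitted within normal arrays was -0.95 (adjusted permutation p = 0.0987). Its rho of -0.99 passed (adjusted permutation p = 0.0153). Within Hyp arrays r was 0.598 and within series 1 and 2 it was 0.935, and neither passed (adjusted permutation p = 0.5085 and 0.2722). With Alas2 it was -0.996 in series 1 and 2 (adjusted permutation p = 0.0243). P-values were adjusted within each of 4 subsets of 14 relations, not over all of them.

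Gcnt1 deviated in the same direction as the erythroid markers, but no relation passed after adjustment. At Gcnt1 probe set 2 r was 0.72 with Slc4a1 (rho 0.72, permutation p = 0.00402, adjusted p = 0.0563) and 0.62 with Alas2 (rho 0.63, permutation p = 0.0291, adjusted p = 0.102). At Gcnt1 probe set 1 r was 0.55 with Slc4a1 (rho 0.60, permutation p = 0.0225, adjusted p = 0.102) and 0.62 with Alas2 (rho 0.66, permutation p = 0.0139, adjusted p = 0.0972). The outcome rests on how the test is run. When permuted deviations were not fitted again on the model, as the test was first specified, all 4 Gcnt1 relations passed, with adjusted permutation p of 0.0186, 0.0457, 0.0436 and 0.0381 in the same order. That form gave p under 0.05 in 8.1% of 1000 simulations with no relation, against 4.6% for the form used here, and the change was made after both the simulation and the first results had been seen. With quantile-normalized signals 3 of the 4 passed.

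Within genotypes the Gcnt1 relations were positive, and within sets of series they were not stable. By Pearson r none of the Gcnt1 relations passed in these subsets, and by Spearman rho 1 did, Gcnt1 probe set 2 with Slc4a1 in normal arrays (rho 0.98, adjusted permutation p = 0.0316). Fitted within the 10 normal arrays, r with Slc4a1 was 0.98 at Gcnt1 probe set 2 (adjusted permutation p = 0.0676) and 0.93 at Gcnt1 probe set 1 (adjusted permutation p = 0.102), and within the 10 Hyp arrays it was 0.76 and 0.77 (adjusted permutation p = 0.317 each). With Alas2 it was 0.89 and 0.78 in normal arrays and 0.30 and 0.24 in Hyp arrays. Fitted within series 3 to 5 (12 arrays, 6 residual degrees of freedom), r was 0.04 with Slc4a1 and -0.27 with Alas2 at Gcnt1 probe set 2, and 0.12 and 0.05 at Gcnt1 probe set 1. Fitted within series 1 and 2 (8 arrays, 3 residual degrees of freedom), r was -0.79 with Slc4a1 and 0.71 with Alas2 at Gcnt1 probe set 2, and -0.92 and 0.95 at Gcnt1 probe set 1. The deviations of the fit over 20 arrays gave r between 0.43 and 0.68 in series 3 to 5 and between 0.49 and 0.86 in series 1 and 2 for the same 4 relations. These deviations keep the difference between the series sets in the Hyp effect, which a fit within a set removes. Without the 2 arrays farthest from the median of Slc4a1 (Hyp male 2 and normal male 5), r was 0.67 at Gcnt1 probe set 2 and 0.42 at Gcnt1 probe set 1. Without the 2 farthest for Alas2 (normal males 1 and 3) it was 0.47 and 0.57, and none of these passed (adjusted permutation p from 0.224 to 0.614).

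**Figure D3:**
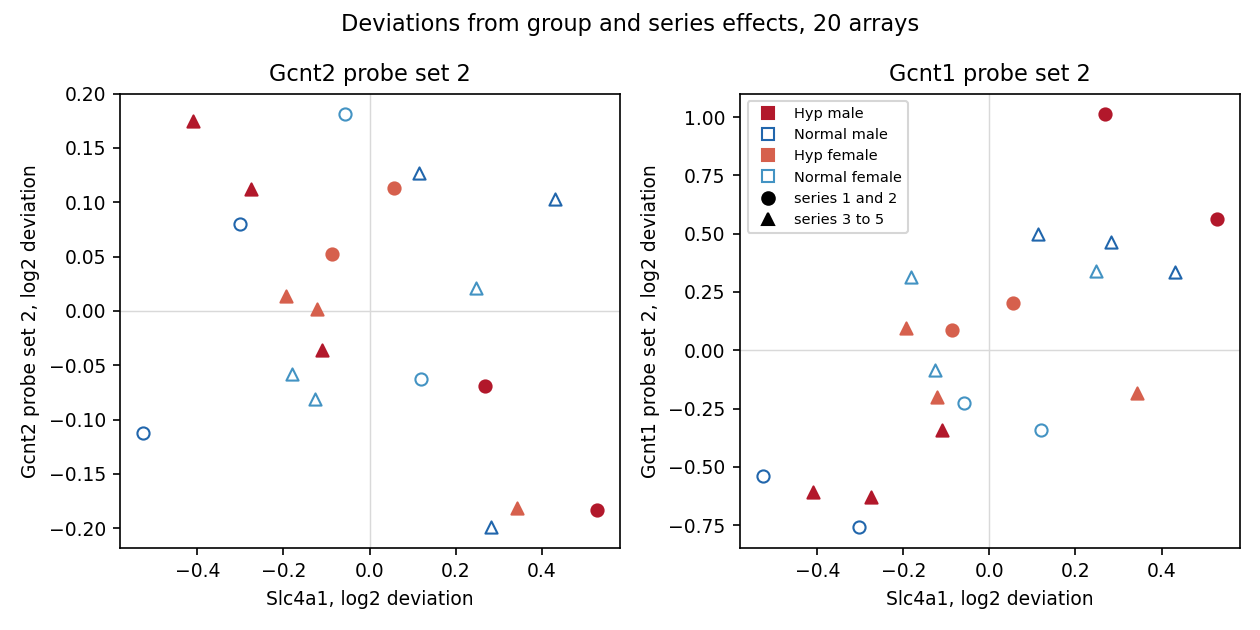
Deviation of Gcnt2 probe set 2 and of Gcnt1 probe set 2 from group and series effects, against that of Slc4a1, for 20 arrays on the log2(signal + 16) scale. The Gcnt2 points fall with r = -0.36 and the Gcnt1 points rise with r = 0.72, and neither relation passed after adjustment. No normal array called Gcnt2 probe set 2 present.

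Genes that build, extend and cap the same glycans are given by list, and their counts are to be read against the 2.38% of all probe sets called. Of 6 other branching enzymes measured, 0 rose and 0 fell, with a median of -0.02. Mgat2, Mgat1 and Mgat4b, which branch N-glycans, stood at -0.05 ± 0.08, -0.13 ± 0.06 and 0.02 ± 0.06 (SE). Among 10 genes of poly-N-acetyllactosamine extension, the substrate of Gcnt2, 0 rose and 0 fell, with a median of 0.00. The galactosyltransferase gene B4galt1 stood at -0.05 ± 0.10, and the N-acetylglucosaminyltransferase genes B3gnt9 and B3gnt2 at -0.19 ± 0.11 and 0.12 ± 0.11. Of 16 sialyl- and fucosyltransferases 0 rose and 0 fell (median -0.06), with St3gal6 at -0.07 ± 0.07, Fut8 at -0.10 ± 0.09 and St3gal5 at -0.05 ± 0.11.

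Of 11 genes that start O-glycans and build their cores, 1 fell and 0 rose, with a median of -0.14. Galnt3, which attaches the first sugar of O-glycans and glycosylates Fgf23, fell by 0.64 ± 0.15 (SE) in 9 of 10 pairs (limma adjusted p = 0.0387). Its signal averaged 452.0 ± 137.9 in Hyp males and 722.7 ± 243.1 in normal males, and 487.6 ± 165.1 in Hyp females and 761.3 ± 235.4 in normal females (SD, n = 5 each). In 18 of 25 repeats that left out a series or an array, no gene of the glycosylation lists was called lower. Galnt1, another initiating enzyme, stood at -0.14 ± 0.08, Galnt2 at -0.11 ± 0.11, and C1galt1c1, the chaperone of the core 1 enzyme, at -0.14 ± 0.075.

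Of 13 genes for selectins and carriers of branched glycans, 1 rose and 0 fell, with a median of 0.07. Sele, the endothelial E-selectin that binds sialylated and fucosylated glycans, rose by 0.68 ± 0.13 (SE) in 10 of 10 pairs (limma adjusted p = 0.0175). Its signal was low, at 99.0 ± 21.1 in Hyp males and 52.4 ± 21.3 in normal males, and at 85.7 ± 27.3 in Hyp females and 51.14 ± 12.04 in normal females. It was called present on 7 of 10 Hyp arrays and 1 of 10 normal arrays, so it passed the filter through the Hyp arrays, and its call is not read as support for the list. In males, where 0 of 5 normal arrays called it present, it was at least 1.99-fold higher in Hyp, and 4 of 25 such repeats called no gene of these lists higher. Endothelial markers moved with it: 12 of 12 measured had a positive difference and 3 rose, with a median of 0.37. Their summed signal ran from 16326.5 to 22443.1 in Hyp males and from 11532.3 to 16137.0 in normal males, and from 15393.6 to 20477.3 in Hyp females and from 11667.8 to 17175.7 in normal females. Their part in the rise of Sele was not tested. Lgals1, a galactose-binding lectin, stood at 0.01 ± 0.09, and the lysosomal glycoprotein genes Lamp2 and Lamp1 at 0.14 ± 0.08 and 0.01 ± 0.08.

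**Figure D4:**
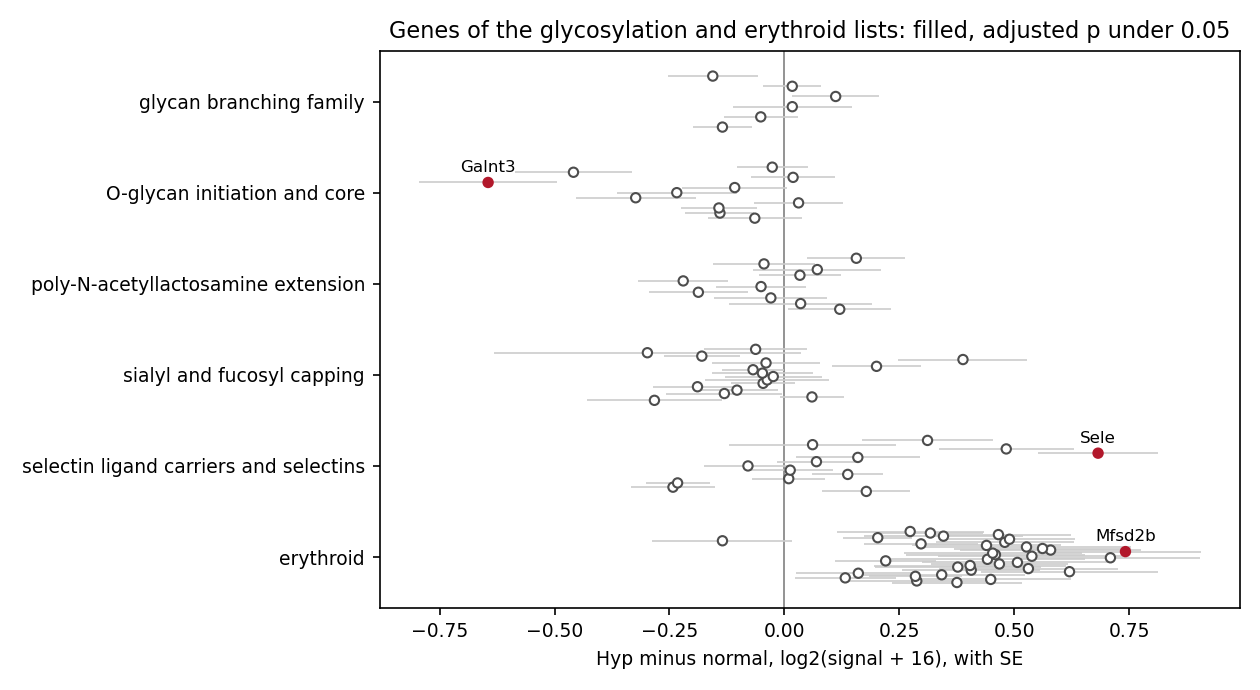
Hyp minus normal with SE on the log2(signal + 16) scale for each measured gene of the 5 glycosylation lists and the erythroid list, filled where the limma adjusted p is under 0.05. Galnt3, Sele and Mfsd2b are filled, and 33 of 34 erythroid genes lie right of 0.

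The genes most like the brightest probe set of each gene were ranked by Pearson r of deviations over 20 arrays among 12429 genes, as a description. For Gcnt1 probe set 1 they were Nup160 (0.94), Ncoa4, Kctd14, Mkrn1, Smchd1, Pml, Nanp, Slc35e2, Carhsp1 and Ccdc71l (0.90). Slc4a1 stood at rank 1165 and Alas2 at rank 846. For Gcnt2 probe set 1 they were Ccl25 (0.87), Palm, Shf, Abhd13, Zdhhc24, Ralgapb, Vegfc, Pmaip1, Rnf207 and Slc16a7 (0.81), with Slc4a1 at rank 4492 and Alas2 at rank 6173. All values come from the same 20 arrays.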

How the data were processed

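Total RNA of mouse femoral shafts was hybridised to Affymetrix arrays. The authors deposited linear signal intensity values, made with GCOS per the submitters' processing notes. The scaling settings are not given in the sources used here. Detection calls, Hyp to normal ratio values and F score values from an analysis of variance were deposited by the authors too. Probe sets were named through the array's gene table (34958 with 1 symbol, 932 with several, 9211 with none).

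Signals were used as log2(signal + 16). Control probe sets and those called present on fewer than 5 of 20 arrays were left out, leaving 27141 for 12430 genes. limma 3.58.1 in R 4.3.3 fitted the 4 groups with the series as a block, with Benjamini-Hochberg adjustment over all probe sets and a threshold of 0.05. The labels state the matching behind the block. Deviations from group means correlated with a median of 0.215 over 30 pairs of arrays of one series, across probe sets, which are not independent. The median over 120 other pairs was -0.07. Taking out the group means itself pushes that value below 0, so it is no separate comparison. P-values measure the spread between pools of mice.

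Correlations used deviations from group and series effects and 2-sided permutation within series (100000 draws). Within the normal or the Hyp arrays alone, and without the replicate block, arrays were permuted across series instead. Within sets of series every permutation within series was used, 576 for series 1 and 2 and 13824 for series 3 to 5. The test was changed after its first results were seen: simulation showed too many low p-values, so each permuted set is fitted again on the model. Genes of a list were read by their brightest probe set, and 225 of 246 list symbols matched. Alternatives were other pseudocounts, filters and normalization, no block, subsets of series and arrays, covariates, and each series or array left out.

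Named genes were the list members called, the 3 highest signals of each glycosylation list and the 10 genes most like each brightest probe set. The genes, lists and motifs were chosen with earlier results of these data known. No genome sequence was used.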

Additional observations from a re-analysis of the deposited data

Results flagged for a closer look

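In 4 of 40 groups of 5 arrays, 1 array lay apart from the other 4 by more than 0.71 of the group's range, where chance gives about 1 in 20. All 4 are Gcnt2 probe sets. At Gcnt2 probe set 1 normal female 2 stood high at 622.8, with a gap of 0.766 of the range. At Gcnt2 probe set 7 normal male 1 stood high at 69.4 (gap 0.832) and Hyp female 4 at 21.1 (gap 0.848), and at Gcnt2 probe set 8 normal female 3 stood high at 20.0 (gap 0.808). The probe sets of the last 3 arrays were not in the fit.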

How the results depend on the processing

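For Gcnt2 probe set 2 the Hyp difference lay between 0.68 and 0.75 when single series or arrays were dropped and between 0.60 and 0.79 under 10 other settings. It stayed above 0 in all of these, and the setting that requires a present call on 10 arrays left it out, because it was called present on 9. Without the replicate block it was 0.72, and the block changed no call among the members. For the sex contrast and the interaction, 0 probe sets passed under the 33 alternatives each, of 7 tested, or of 6 where a present call on 10 arrays was required. Some signs turned. In series 3 to 5 alone, Gcnt1 probe set 2 stood at 0.06 for female against male and 0.62 for the interaction. Over the 8 settings that did not leave out a single series or array, its interaction ran from -1.06 to 0.62. That of Gcnt1 probe set 1 ran from -1.17 to -0.19. In series 1 and 2 alone, Gcnt2 probe set 5 stood at -0.17 for sex and 0.17 for the interaction, Gcnt2 probe set 1 at -0.14, Gcnt2 probe set 2 at 0.07 and Gcnt2 probe set 4 at -0.02 for the interaction. With a pseudocount of 64 the interaction at Gcnt2 probe set 5 was 0.01. With a series or array left out, signs also turned for sex at Gcnt1 probe set 2 (-0.16 to 0.13) and Gcnt2 probe set 4 (-0.11 to 0.03), and for the interaction at Gcnt1 probe set 2 (-0.26 to 0.29), Gcnt2 probe set 2 (-0.13 to 0.03), Gcnt2 probe set 4 (-0.07 to 0.23) and Gcnt2 probe set 5 (-0.29 to 0.27).

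The number of the 14 correlations that passed by Pearson r was 0 as reported. It was 3 with quantile normalization and 4 without the new fit of permuted deviations. It was 1 in Hyp arrays and 1 in series 1 and 2 (Gcnt2 probe set 5 with Alas2, r = -0.996). With a series or array left out it was 0 to 4. It was 2 without replicate 4 and without Normal female replicate 1, 4 without Hyp female replicate 4, and 1 without Hyp female replicate 5 or Normal female replicate 4. For Gcnt1 with quantile normalization r was 0.642 and 0.657 at Gcnt1 probe set 1 with Slc4a1 and Alas2 and 0.724 at Gcnt1 probe set 2 with Slc4a1. Without the new fit r is the same, 0.554, 0.615, 0.717 and 0.618. Fitted within series 1 and 2, r turned to -0.92 at Gcnt1 probe set 1 and -0.788 at Gcnt1 probe set 2 with Slc4a1, and within series 3 to 5 to -0.272 at Gcnt1 probe set 2 with Alas2. At Gcnt2 probe set 2 r with Slc4a1 was -0.982 in Hyp arrays and turned to 0.538 in normal arrays, or 0.141 from the deviations over 20 arrays. With Alas2 it turned to 0.21 in normal arrays, 0.509 in series 1 and 2 and 0.003 without the 2 farthest arrays. With a series or array left out, r with Slc4a1 and Alas2 ran from 0.458 to 0.77 and 0.487 to 0.705 at Gcnt1 probe set 1, from 0.629 to 0.841 and 0.485 to 0.821 at Gcnt1 probe set 2, and from -0.638 to -0.149 and -0.56 to -0.035 at Gcnt2 probe set 2.

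Of the glycosylation genes, 1 was called higher and 1 lower. Both counts were 0 with no filter, in either set of series alone and with Slc4a1, Alas2 or the actin ratio as a covariate. The count higher was also 0 with a present call on 10 arrays, and the count lower 0 without the replicate block and with the mean of a gene's probe sets. With a series or array left out they ran from 0 to 1 and from 0 to 2. The causes were not tested. Signals of probe sets not called present, with 0 of 10 normal arrays at Gcnt2 probe set 2, limit what a difference says of the transcript.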

Other observations

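Deviations were also set against the whole erythroid list, a comparison chosen after the values were seen. Of 34 erythroid genes, 32 had a positive r with Gcnt1 probe set 1 and 33 with Gcnt1 probe set 2, against 1 with Gcnt2 probe set 2 and 26 with Gcnt2 probe set 1. The difference between the genes was not tested. The share of all genes with a positive r was not computed, so these counts have no background to be read against. The mean deviation of the list correlated at 0.75 with Gcnt1 probe set 1 (rho 0.74, permutation p = 0.00467) and at -0.32 with Gcnt2 probe set 2 (rho -0.27, permutation p = 0.254), and at 0.12 with Gcnt2 probe set 1 (rho 0.16, permutation p = 0.614). Adjusted over 64 relations, 16 lists by 4 probe sets, the lowest adjusted permutation p was 0.128. Genes of cell division, with 15 of 15 positive for Gcnt1 probe set 1 and r = 0.85 for the list, stood at the same adjusted permutation p. So did the sialyl- and fucosyltransferases, with r = -0.67 at Gcnt1 probe set 1 and -0.68 at Gcnt1 probe set 2. Other lists had r of like size with Gcnt1 probe set 1, at 0.69 for megakaryocyte and B lymphocyte genes and -0.66 for skeletal muscle genes. Counts were alike too. With Gcnt1 probe set 1, 10 of 10 megakaryocyte and 12 of 12 neutrophil genes had a positive r. With Gcnt2 probe set 2, 0 of 15 cell division and 0 of 10 megakaryocyte genes had one. The genes of a list share cells and arrays and are not independent.

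The genes most like Gcnt2 probe set 2, ranked after its values were seen, were led by Slc20a2, a sodium-phosphate cotransporter gene (r = 0.93), Nudcd1 and Dync1i1 (0.90 each), as the highest of 12429 genes over the same 20 arrays.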
